A study of Mus musculus with 8 samples.

Results

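Il17a-producing cells were CD4 T cells from mice with experimental autoimmune encephalomyelitis (EAE), which models multiple sclerosis, and were chosen by their own Il17a count: at least 3 UMIs (molecules counted once) of Il17a, the gene of interleukin-17A. They numbered 902 of 21551 kept cells. Kept barcodes had 500 genes or more and no more than 10% of UMIs from mitochondrial genes, and each Il17a cell was set against the cells of the same library with 0 Il17a UMIs, 19930 in all. Another 719 cells held 1 or 2 Il17a UMIs and entered neither class. The Il17a count chose the cells, so its own level is given only as a description.

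All mice were Foxp3-Cre-YFP, carrying Cre and a yellow fluorescent reporter under the regulatory T cell gene Foxp3, and all had EAE. Brain freed of meninges and spinal cord were taken at day 14, the acute phase, and at day 50, the chronic phase, giving 1 RNA library with antibody counts for each tissue and day. Sorted cells were TCRβ+ CD11b- conventional CD4 T cells that were CD44+ and Foxp3-YFP-, so regulatory T cells were gated out. The labels give neither the ages of the mice nor the number pooled in a library, and every p-value below measures spread between 4 single libraries.

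T helper 17 (Th17) cells make IL-17A and the related IL-17F, which drive epithelial and stromal cells to recruit neutrophils. IL-23 and IL-1 sustain them through Il23r and Il1r1, and CCR6 guides them to CCL20. In EAE they are known for GM-CSF, encoded by Csf2, and for turning to the Th1 cytokine interferon-γ, encoded by Ifng.

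The nuclear receptor encoded by Rora, a factor of Th17 cells, binds DNA at the half-site AGGTCA, and the 250 bases before the RefSeq start (GRCm38.p6) were searched for it on both strands in 8 Th17 genes. Il17a, Il17f, Il23r and Ccr6 each held a match. Ccr6 has a pair of RefSeq starts, and the window of the other, chr17:8242276-8242525, held none. Il22, Il21, Il1r1 and Csf2 held none. The 4 genes with a match were chosen for printing after the search, because Il17a defines these cells and the others are read out below. Capitals mark AGGTCA or its reverse complement TGACCT, and each sequence runs 5′ to 3′ on the strand of its gene.
Il17a, chr1:20730655-20730904, plus strand: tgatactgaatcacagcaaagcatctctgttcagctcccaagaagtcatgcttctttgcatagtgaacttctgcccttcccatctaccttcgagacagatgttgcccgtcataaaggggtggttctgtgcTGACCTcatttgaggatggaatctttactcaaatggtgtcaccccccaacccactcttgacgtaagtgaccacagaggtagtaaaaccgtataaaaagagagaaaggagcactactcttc
Il17f, chr1:20784271-20784520, minus strand: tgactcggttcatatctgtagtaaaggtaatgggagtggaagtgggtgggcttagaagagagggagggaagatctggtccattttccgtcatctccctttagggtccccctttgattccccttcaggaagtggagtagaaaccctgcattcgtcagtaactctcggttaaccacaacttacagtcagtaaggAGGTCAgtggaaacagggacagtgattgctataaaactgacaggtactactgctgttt
Il23r, chr6:67491856-67492105, minus strand: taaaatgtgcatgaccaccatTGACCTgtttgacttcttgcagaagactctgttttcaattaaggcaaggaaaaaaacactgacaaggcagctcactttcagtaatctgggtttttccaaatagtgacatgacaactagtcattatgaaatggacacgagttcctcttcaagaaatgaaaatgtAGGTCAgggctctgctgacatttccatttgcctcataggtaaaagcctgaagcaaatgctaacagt
Ccr6, chr17:8235793-8236042, plus strand: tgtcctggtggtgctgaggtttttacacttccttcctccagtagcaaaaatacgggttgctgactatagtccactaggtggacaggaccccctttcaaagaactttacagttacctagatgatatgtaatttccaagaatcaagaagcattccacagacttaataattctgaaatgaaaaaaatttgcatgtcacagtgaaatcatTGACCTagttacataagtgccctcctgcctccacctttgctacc
The match began 120 bases before the start in Il17a, 58 in Il17f and 44 in Ccr6. Il23r had 2, at 229 and 66 bases. The motif occurred in 14.0% of all 32851 RefSeq windows of this length. Among genes that proved higher in Il17a cells it was in 11.5% of 365 windows, and among those lower in 10.6% of 367, against 10.5% of the 6715 windows of genes tested. A match is a description of these letters, not a bound site.

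Il17a cells made up 4.99% of kept cells in brain at day 14 (515 of 10313, exact 95% interval 4.58 to 5.43%) and 8.62% at day 50 (30 of 348, 5.89 to 12.1%). In spinal cord they were 3.51% at day 14 (325 of 9270, 3.14 to 3.90%) and 1.98% at day 50 (32 of 1620, 1.36 to 2.78%). Thinned to 2000 UMIs per cell, the shares were 3.34%, 7.20%, 1.62% and 1.74%, so the gap between the days in spinal cord was not seen at equal depth. Runs of 4 values follow this order throughout: brain day 14, brain day 50, spinal cord day 14, spinal cord day 50. Intervals of shares, levels and ratios cover counting error only.

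Most Il17a RNA lay in few cells. Il17a cells held 94.5%, 98.3%, 91.2% and 98.0% of all Il17a UMIs. The median Il17a cell had 8, 12.5, 7 and 17.5 Il17a UMIs, and the highest had 429, 64, 155 and 120. Il17a made up a share of each Il17a cell's RNA UMIs whose median over cells was 0.177%, 0.259%, 0.111% and 0.291%. Il17a cells also held more RNA than zero cells, with medians of 5148 against 3920 UMIs, 3804.5 against 2956.5, 6228 against 4871 and 4767 against 3456. Calls of named genes that were lost against zero cells of like depth are therefore stated.

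The kept cells held 47272714, 1177903, 50710551 and 6078142 RNA UMIs, so day 50 brain is the thinnest library and 30 cells stand for it. Between 0 and 33 barcodes were shared by any pair of libraries, and 4 of these were Il17a cells. Doublets were not removed. The cells passed as αβ CD4 T cells: Cd3e stood at 383, 439, 529 and 429 CPM (counts per 1000000 UMIs) in Il17a cells, and Cd4 at 148, 212, 256 and 139. Foxp3, Cd8a, Cd79a and Ms4a1 had 0 UMIs in the Il17a cells of every library, but Cd8b1 had 22, 1, 13 and 0. The CD8 list of 2 genes summed to 7.12, 7.84, 5.83 and 0 CPM against 4.97, 3.92, 6.68 and 5.12 in zero cells, and the B cell list of 5 genes to 3.24, 0, 3.14 and 5.57 against 0.974, 1.96, 0.970 and 0.512, all of it Cd79b in the Il17a cells. The myeloid list of 12 genes summed to 24.6, 15.7, 38.6 and 16.7 CPM against 18.2, 118.5, 26.6 and 20.8 in zero cells. Of 8 genes that mark γδ T cells, another IL-17 source, the summed level was 20.4, 86.2, 17.03 and 5.57 CPM in Il17a cells and 14.5, 9.80, 12.3 and 26.1 in zero cells. Trdc, the constant gene of the δ chain, had 11, 0, 1 and 0 UMIs in Il17a cells, and Sox13 had 0 in both classes. Blk had 1, 0, 4 and 0 UMIs in Il17a cells against 3, 0, 1 and 1 in the far larger sums of zero cells. For 5830411N06Rik the counts were 18, 6, 4 and 0 against 122, 0, 116 and 11. With no filter on low counts, 2 of 7 genes of this list were higher and 0 lower, at a median of -0.63. Tcrg-C1, a constant gene of the γ chain that near-identical copies may share reads with, was higher in Il17a cells (1.80 ± 0.48 (SE), adjusted p = 0.0217), a call lost without either day 14 library. Its Il17a cells held 25, 5, 23 and 1 UMIs, and in spinal cord at day 50 it was not higher. Without brain day 50, or without cycling cells, Tcrg-C1 fell below the average of 10 CPM needed for a test. Markers of invariant and innate lymphocytes summed to 52.1, 31.4, 82.9 and 50.2 CPM against 80.4, 71.5, 89.8 and 73.3, with Ncr1 at 0 throughout. The part of any of these cells in the results was not tested.

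Summed UMIs of both classes in the 4 libraries were compared by edgeR's quasi-likelihood test with the library as a block, without Il17a. Genes tested averaged at least 10 CPM over both classes, so a gene nearly absent from either class could pass through the other. Il17f, Il21, Ccr6, Pxdc1 and Tcrg-C1 were among those that passed only through their level in Il17a cells. Cxcl3 and Il23r were likewise low in zero cells, at 2.92 and 3.16 CPM in brain at day 14. Il17a cells had 375 of 6583 genes higher (5.70%) and 328 lower (4.98%) at a Benjamini-Hochberg adjusted p under 0.05, 10.7% in all. Differences are log2 with the standard error (SE), and the median over all genes was -0.01. Members of the lists of Th17 factors, cytokines, T cell receptor (TCR) response and glycolysis were called higher and none lower, and members of the Th1, cytotoxic, recirculation and interferon response lists lower and none higher. The day 14 libraries, with 515 and 325 of the Il17a cells, set the number of calls: without brain day 14 there were 158 higher and 158 lower, and without spinal cord day 14 there were 118 and 89.

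**Figure D1:**
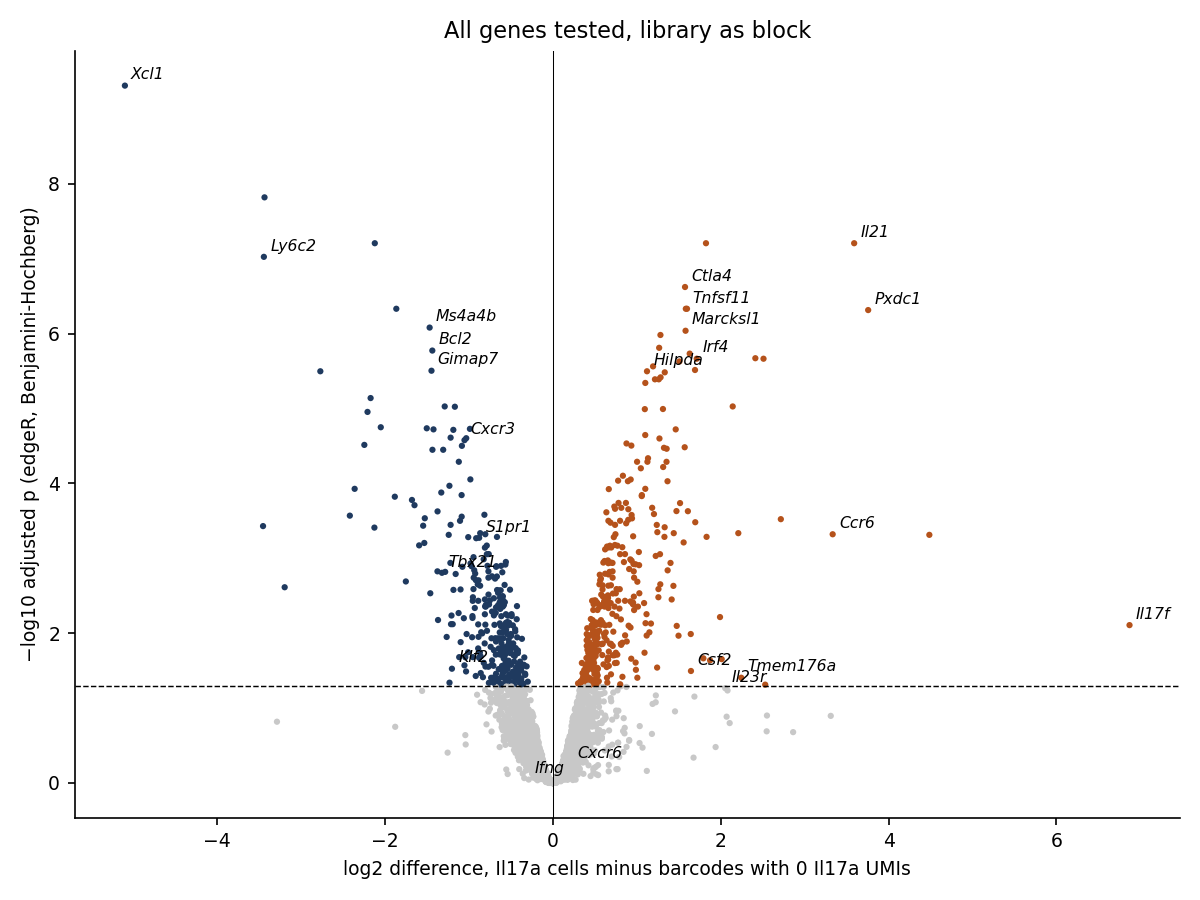
Each point is one of the 6583 genes tested, with the log2 difference between Il17a cells and cells with 0 Il17a UMIs on the x axis and -log10 of the edgeR adjusted p on the y axis. Orange points are the 375 genes higher in Il17a cells, blue the 328 lower, grey those not called, and the dashed line marks an adjusted p of 0.05; Il17f lies farthest right and Xcl1 farthest left.

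Of 14 Th17 transcription factors tested, 11 were higher and 0 lower, with a median difference of 0.79; 6 were called higher without brain day 14 and 5 without spinal cord day 14. Rora stood at 355, 384, 302 and 239.7 CPM in Il17a cells and at 209, 136, 199.5 and 121 in zero cells, so every Il17a value lay above every zero value. The difference was 0.82 ± 0.12 (SE), adjusted p = 0.000212, and it held without each library. Irf4, which the TCR induces and Th17 cells need, gave 47.9, 141, 38.1 and 33.5 against 12.9, 21.6, 14.4 and 10.9 (1.72 ± 0.16 (SE), adjusted p = 2.17e-06). Rbpj, the DNA-binding partner of Notch, differed by 1.22 ± 0.12 (SE), adjusted p = 4.09e-06, and Runx1, a Runt-domain factor of T cells, by 0.94 ± 0.14 (SE), adjusted p = 0.000265.

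Maf, which favours IL-10 in Th17 cells, differed by 0.93 ± 0.18 (SE), adjusted p = 0.0084, but the call was lost without either spinal cord library. Ahr, the receptor of dioxin-like ligands that IL-22 expression needs, differed by 0.77 ± 0.20 (SE), adjusted p = 0.0193, with 4 UMIs in each day 50 library; the call was lost without either day 14 library. Ikzf3 (0.66) depended on the same libraries. Prdm1, Bhlhe40 and Hif1a, the hypoxia factor, were called at 0.86, 0.47 and 0.39, though not without either day 14 library, and Prdm1 was lower in Il17a cells in both day 50 libraries. Batf, Stat3 and Nfkbiz were not called, at 0.37, 0.21 and 0.18 (adjusted p = 0.0568, 0.327 and 0.389).

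Of 18 Th17 receptors and surface genes tested, 8 were higher and 0 lower, at a median of 0.80; without brain day 14 there were 4 of the list higher, and without spinal cord day 14 there were 6, not all of them the same genes. Ccr6 had 27.5, 94.1, 40.3 and 106 CPM in Il17a cells against 4.14, 6.86, 3.82 and 1.88 in zero cells, with no overlap between the classes. It differed by 3.33 ± 0.36 (SE), adjusted p = 0.000479 and held without each library. Ccr6 passed the filter on low counts only through the Il17a cells. At a minimum of 50 CPM, 6 of 13 genes of the list were higher and 0 lower, with a median of 0.56. Il1r1, the signalling receptor of IL-1, had 88.1, 118, 161 and 83.6 CPM against 23.9, 8.82, 52.99 and 5.12 (1.87 ± 0.30 (SE), adjusted p = 0.0231), a call lost without brain day 14. Il17re, part of the receptor for IL-17C, differed by 1.23 ± 0.19 (SE), adjusted p = 0.000932, and Serpinb1a, a protease inhibitor, by 1.01 ± 0.13 (SE), adjusted p = 5.15e-05.

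Tmem176a, a membrane protein whose gene lies beside Tmem176b, reached 399.9, 1074, 377 and 708 CPM in Il17a cells against 94.3, 103, 136 and 105. All 4 libraries were higher, and the difference was 2.25 ± 0.35 (SE), adjusted p = 0.0394, lost without brain day 14 or spinal cord day 50. Tmem176b, at 366, 839, 361 and 858 CPM against 100.3, 106, 148 and 116, just missed the threshold (2.08 ± 0.37 (SE), adjusted p = 0.0583). So did Il23r (2.05 ± 0.57 (SE), adjusted p = 0.0542), which had 45, 0, 38 and 10 UMIs in Il17a cells. Ltb4r1, the receptor of leukotriene B4, was higher in every library, at 215, 227, 232 and 128 CPM against 88.6, 37.2, 134 and 29.04 (1.24 ± 0.25 (SE), adjusted p = 0.0288). Gpr65, Icos and Podnl1 were also called, at 0.59, 0.42 and 0.59; these 3 calls were lost without either day 14 library, and Gpr65 also at like depth.

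**Figure D2:**
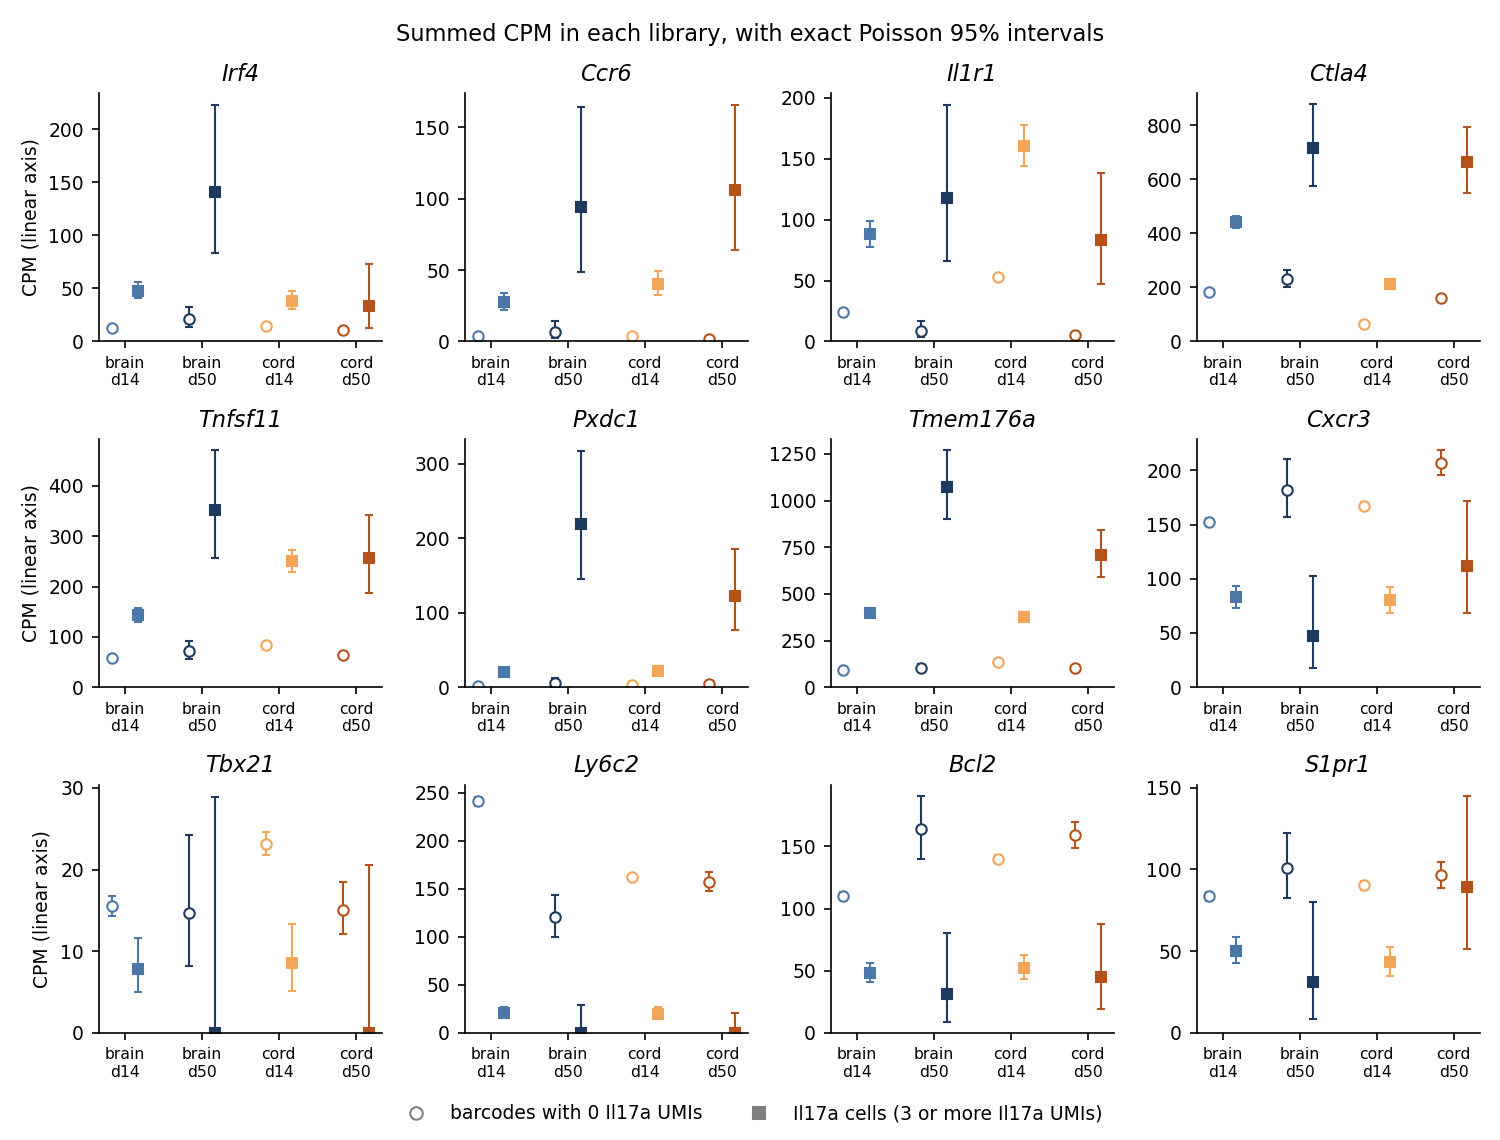
Level of 12 genes in each library, in CPM on linear axes that start at 0; filled squares are Il17a cells, open circles cells with 0 Il17a UMIs, and bars exact Poisson 95% intervals, which cover counting error only. The squares lie above the circles in every library for the first 7 genes, from Irf4 to Tmem176a, and below them for Cxcr3, Tbx21, Ly6c2, Bcl2 and S1pr1, where day 50 spinal cord S1pr1 (89.2 against 96.3 CPM) shows the smallest gap.

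Of 18 T cell cytokine genes, 13 passed the filter on low counts, and 7 were higher and 0 lower, with a median of 1.59. Il17f and Il21, among those higher, passed it only through the Il17a cells. At a minimum of 50 CPM, 5 of 10 were higher and 0 lower, with a median of 1.21. Without brain day 14 there were 5 higher, and without spinal cord day 14 there were 3. Il21, a cytokine that Th17 and follicular helper cells make, stood at 27.2, 47.04, 44.8 and 22.3 CPM against 2.78, 4.9, 2.87 and 1.71. Il21 differed by 3.59 ± 0.25 (SE), adjusted p = 6.23e-08 and held without each library, though its 6 and 4 UMIs at day 50 came from at most 2 cells in each library. Tnfsf11, which encodes RANKL, stood at 143, 353, 250.1 and 256 CPM against 57.7, 72.5, 84.8 and 63.4, so that all Il17a values lay above all zero values (1.59 ± 0.13 (SE), adjusted p = 4.67e-07).

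Il17f was nearly absent from zero cells, at 2.99, 0.98, 0.388 and 0.512 CPM, and stood at 227, 15.7, 69.9 and 579.7 in Il17a cells. The difference was 6.87 ± 0.53 (SE), adjusted p = 0.00781, lost without spinal cord day 14. Its RNA was even more uneven than that of Il17a: 2 cells held 72.6% of the Il17f UMIs of brain day 14 Il17a cells and 66.3% of those of spinal cord day 50. At 2000 UMIs per cell, Il17f was seen in 7.52%, 9.09%, 7.10% and 25.8% of Il17a cells, and in 0.325%, 0, 0.0707% and 0.0689% of zero cells. The 0 of 222 thinned zero cells of brain at day 50 allows a share of cells with a UMI of up to 1.35% by 3 counts, or 1.65% by the exact interval.

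Csf2, which encodes GM-CSF, gave 99.4, 173, 183 and 16.7 CPM against 42.99, 12.7, 46.7 and 11.8. It differed by 1.65 ± 0.29 (SE), adjusted p = 0.032, and the call was lost without either spinal cord library; 3 UMIs made up the day 50 spinal cord value. At equal depth Csf2 was seen in 8.94%, 18.2%, 13.9% and 0% of Il17a cells, against 3.13%, 1.35%, 3.98% and 1.65% of zero cells. The 0 of 31 Il17a cells allows up to 9.68% by 3 counts, or 11.2% by the exact interval, so it is not detectably lower. Il22, a cytokine acting on epithelia, gave 384, 0, 185 and 535 CPM against 63.2, 2.94, 22.7 and 6.15 but was not called (3.31 ± 0.78 (SE), adjusted p = 0.127). In spinal cord at day 50, 2 cells held 94.8% of its UMIs. Areg, the growth factor amphiregulin, differed by 2.01 ± 0.32 (SE), adjusted p = 0.0222, with 0 UMIs in brain at day 50, and was called without that library only. Lta and Ltb, subunits of lymphotoxin, differed by 0.82 ± 0.18 (SE), adjusted p = 0.0143 and 0.35 ± 0.10 (SE), adjusted p = 0.025; Lta was lost without spinal cord day 50 and against zero cells of like depth, and Ltb without either day 14 library.

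In every library most Il17a cells had a UMI of neither gene for the pairs Csf2 with Ifng and Il17f with Il22. In brain at day 14, of 515 Il17a cells, 37 had a UMI of both Csf2 and Ifng, 43 of Csf2 only, 110 of Ifng only and 325 of neither. In spinal cord at day 14, of 325 cells, the numbers were 37, 28, 64 and 196. There, more cells with Csf2 also had Ifng than lacked it. Il17f and Il22 were both seen in 30 and 14 cells of these libraries, Il17f alone in 33 and 21, and Il22 alone in 67 and 30. At day 50, 20 of 30 brain cells and 30 of 32 spinal cord cells had neither Csf2 nor Ifng. A cell without a UMI may still express the gene at this depth. Whether a pair shared cells more often than its separate shares would give was not tested.

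Il10 had 7, 0, 6 and 0 UMIs in Il17a cells and was too low to test. Ccl20, the ligand of CCR6, had 1, 3, 30 and 4 UMIs in Il17a cells, in at most 2 cells of each library. Chemokine ligands gave 1 gene higher and 2 lower of 6 tested, with a median of -1.35. Cxcl3, which attracts neutrophils, was the higher one (4.49 ± 0.43 (SE), adjusted p = 0.000487), lost without spinal cord day 14. Xcl1, the ligand of XCR1 on cross-presenting dendritic cells, fell to 2.27, 0, 3.14 and 0 CPM from 63.4, 103, 94.9 and 260.1 (-5.09 ± 0.24 (SE), adjusted p = 4.91e-10). With 0 UMIs it was at least 4.37-fold lower in brain and 15.6-fold lower in spinal cord at day 50, against a floor of 3 counts per library. With a threshold of 2 Il17a UMIs the difference was -2.87 (adjusted p = 0.11). Ccl3 was lower by 2.17 on the log2 scale (-2.17 ± 0.23 (SE), adjusted p = 7.28e-06), a call lost against zero cells of like depth.

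Of 12 Th1 genes tested, 0 were higher and 5 lower (Cxcr3, Eomes, Tbx21, Gzmk and Stat4), with a median of -0.76; without brain day 14 there were 4 lower, and without spinal cord day 14 there were 3. Cxcr3, the receptor for interferon-induced chemokines, stood at 82.9, 47.04, 80.2 and 112 CPM against 153, 182, 167 and 207, so every Il17a value lay below every zero value (-1.05 ± 0.13 (SE), adjusted p = 2.65e-05). Tbx21, which encodes the Th1 factor T-bet, stood at 7.77, 0, 8.52 and 0 CPM against 15.5, 14.7, 23.1 and 15.03 (-1.32 ± 0.24 (SE), adjusted p = 0.00156). The 0 of Tbx21 in the day 50 libraries is not detectably lower there, since 3 counts in so few cells are 23.5 and 16.7 CPM. Ifng itself was not called over the 4 libraries (-0.29 ± 0.82 (SE), adjusted p = 0.901), and its difference changed between the days.

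Cytotoxic genes showed the lowest median of the lists, -1.55, with 0 of 10 higher and 7 lower. There were 6 lower without brain day 14, and 6 without spinal cord day 14. Gzma, a granule protease, stood at 6.15, 0, 8.52 and 0 CPM against 84.7, 6.86, 64.6 and 6.49 (-3.43 ± 0.20 (SE), adjusted p = 1.52e-08). Its 0 in the day 50 libraries is not detectably lower there, since 3 counts are 23.5 and 16.7 CPM. Klrd1, the CD94 chain of natural killer receptors, stood at 24.6, 7.84, 23.3 and 5.57 against 92.4, 49.95, 107 and 72.9 (-2.12 ± 0.14 (SE), adjusted p = 6.23e-08), with no overlap. Its partner Klrc1 differed by -1.23 ± 0.17 (SE), adjusted p = 0.000108. Eomes, a T-box factor of cytotoxic cells, had 4, 0, 0 and 0 UMIs in Il17a cells (-3.45 ± 0.54 (SE), adjusted p = 0.000372). Gzmk had 34, 0, 2 and 0 UMIs (-3.19 ± 0.38 (SE), adjusted p = 0.00244) and was at least 5.79-fold lower in brain and 10.5-fold lower in spinal cord at day 50.

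Of 13 genes of a pathogenic Th17 signature, 3 were higher (Cxcl3, Icos and Csf2) and 3 lower (Ccl3, Tbx21 and Stat4), at a median of -0.37. Against zero cells of like depth there were 3 higher and 0 lower, at a median of 0.003. Without spinal cord day 14 there were 0 and 1. Of 8 genes of a non-pathogenic signature 3 could be tested, Ikzf3, Maf and Ahr, and all 3 were higher; 1 was higher without brain day 14, and 0 without spinal cord day 14.

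**Figure D3:**
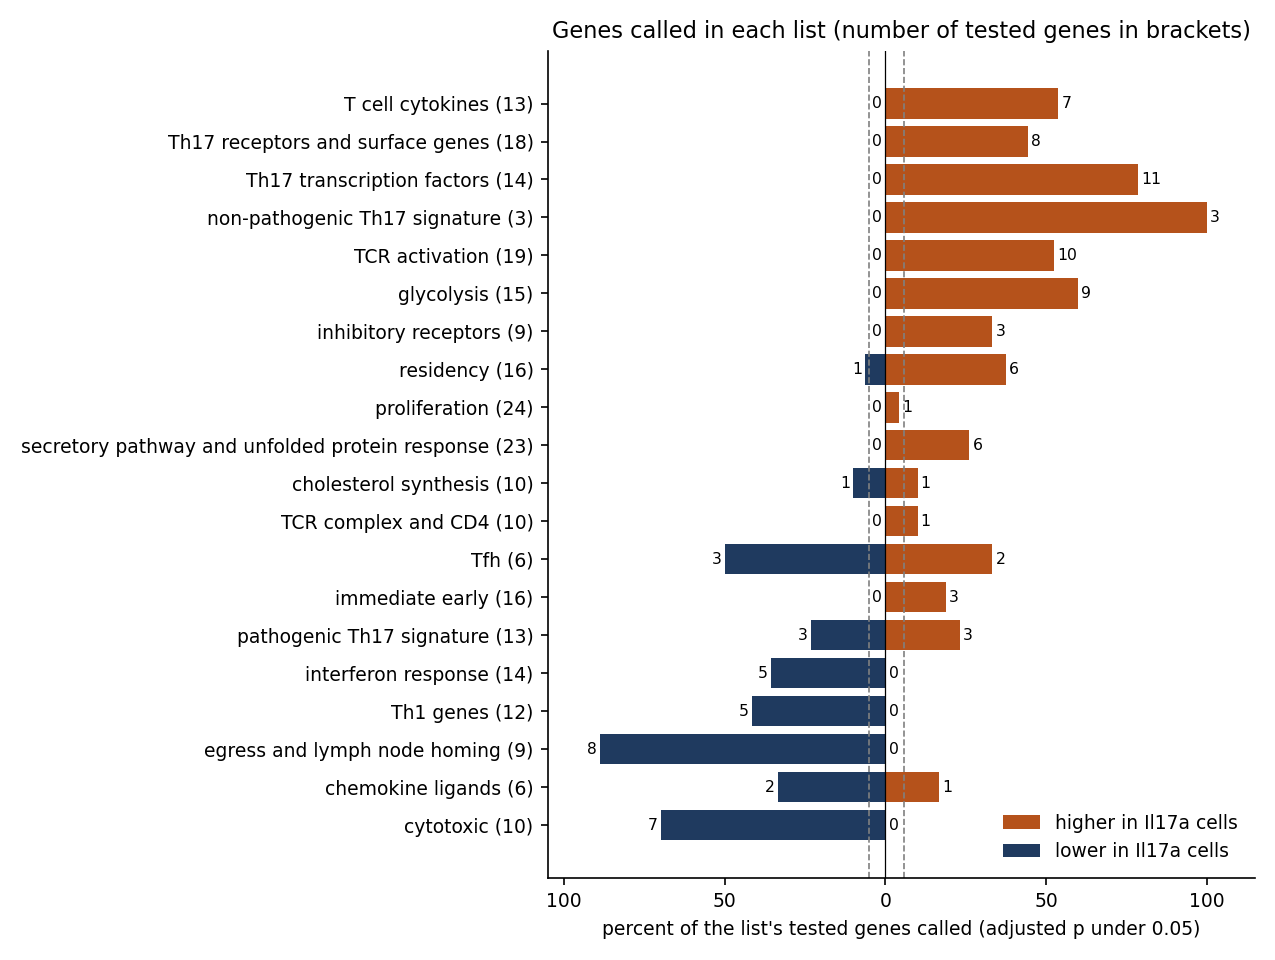
Percent of the tested genes of each list that were higher (orange, to the right) or lower (blue, to the left) in Il17a cells at an edgeR adjusted p under 0.05, with the number of genes at each bar and lists ordered by median difference. Dashed lines mark the 5.70% higher and 4.98% lower over all genes. Cytokine and Th17 factor, receptor and non-pathogenic lists lie at the top, and egress, chemokine and cytotoxic lists at the bottom. The pathogenic Th17 signature (median -0.37) lies in the lower part.

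Of 9 egress and lymph node homing genes tested, 8 were lower and 0 higher, with a median of -1.08; 5 were lower without brain day 14, and 4 without spinal cord day 14. Ly6c2, a surface protein of circulating memory cells that shares reads with its near-identical neighbour Ly6c1, stood at 21.1, 0, 19.7 and 0 CPM against 241, 121, 162 and 157 (-3.44 ± 0.20 (SE), adjusted p = 9.47e-08). With 0 UMIs at day 50 it was at least 5.12-fold lower in brain and 9.41-fold lower in spinal cord. Ms4a4b stood at 565, 431, 385 and 301 CPM against 1154, 1222, 1048 and 1145 (-1.46 ± 0.13 (SE), adjusted p = 8.33e-07). Tcf7, the factor of memory and stem-like T cells, differed by -1.08 ± 0.13 (SE), adjusted p = 3.16e-05. S1pr1, the receptor that leads T cells out of tissue, differed by -0.87 ± 0.14 (SE), adjusted p = 0.000533, a call lost without spinal cord day 14. Klf2, which drives S1pr1, stood at 189, 62.7, 60.5 and 55.7 against 333, 460.4, 136 and 103 (-1.20 ± 0.25 (SE), adjusted p = 0.0298). The Klf2 call was lost without either spinal cord library and against zero cells of like depth (-0.78, adjusted p = 0.316).

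Residency genes gave 6 higher and 1 lower of 16 tested, at a median of 0.34. Those higher were Ctla4, Pdcd1, Nr4a1, Prdm1, Bhlhe40 and Icos, and the lower one was Xcl1. Each of those higher also belongs to a Th17, inhibitory receptor or TCR response list, so none was particular to residency. Without brain day 14 there were 3 higher and 2 lower, and without spinal cord day 14 there were 2 and 1. The 3 genes whose proteins were stained were not called. Cd69, which blocks egress, differed by 0.01 ± 0.11 (SE), adjusted p = 0.978, the ATP receptor gene P2rx7 by 0.15 ± 0.14 (SE), adjusted p = 0.587, and the chemokine receptor gene Cxcr6 by 0.22 ± 0.19 (SE), adjusted p = 0.564. Cxcr6 stood at 434, 659, 546 and 251 CPM in Il17a cells against 338, 284, 584 and 313, higher in both brain libraries and lower in both spinal cord ones. The sign for Cd69 flipped in 7 of 18 alternatives and that for P2rx7 in 2 of 17.

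Ctla4 was the gene with the smallest p among those at 50 CPM or more that rose in every library. This inhibitory receptor, which takes CD80 and CD86 from presenting cells, stood at 441, 714, 211 and 663 CPM against 183, 231, 66.2 and 162 and differed by 1.58 ± 0.12 (SE), adjusted p = 2.4e-07. In each library Il17a cells held 2.41, 3.09, 3.18 and 4.09 times the level of zero cells. Of 9 inhibitory receptors tested, 3 were higher and 0 lower (median 0.42). Besides Ctla4 these were Havcr2, which encodes TIM-3 (1.06 ± 0.15 (SE), adjusted p = 0.000148), and Pdcd1, which encodes PD-1 (0.86 ± 0.15 (SE), adjusted p = 0.00088); both calls were lost without spinal cord day 14.

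Dgat1, also among the strongest, the last enzyme of triglyceride synthesis, stood at 138, 86.2, 161 and 134 CPM against 46.6, 40.2, 53.9 and 23.4 (1.60 ± 0.13 (SE), adjusted p = 4.67e-07). Hilpda, a hypoxia-induced lipid droplet protein, differed by 1.12 ± 0.11 (SE), adjusted p = 3.19e-06, Ehd1, an endosome recycling protein, by 1.28 ± 0.11 (SE), adjusted p = 1.05e-06, and Sla, an adaptor that dampens TCR signals, by 1.20 ± 0.12 (SE), adjusted p = 2.75e-06. Rgcc, a cell cycle regulator, differed by 1.27 ± 0.12 (SE), adjusted p = 1.55e-06 and Marcksl1, an actin regulator, by 1.58 ± 0.14 (SE), adjusted p = 9.19e-07. Pxdc1 was low in zero cells, at 1.69, 5.88, 2.46 and 4.61 CPM, and stood at 20.7, 219.5, 21.5 and 123 in Il17a cells (3.76 ± 0.31 (SE), adjusted p = 4.87e-07). All 10 of the strongest higher genes, and all 10 of the strongest lower ones, kept their calls without each library.

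The strongest lower genes included Bcl2, which blocks apoptosis, at 47.9, 31.4, 52.00 and 44.6 CPM in Il17a cells against 110.2, 164, 139.9 and 159 in zero cells (-1.43 ± 0.13 (SE), adjusted p = 1.69e-06). Gimap7, an immune GTPase, differed by -1.44 ± 0.14 (SE), adjusted p = 3.14e-06, and Zfp36l2, which promotes mRNA decay, by -1.16 ± 0.13 (SE), adjusted p = 9.5e-06. Hopx, a homeodomain protein of effector memory cells, differed by -0.98 ± 0.11 (SE), adjusted p = 1.87e-05, Evl, an actin regulator, by -1.03 ± 0.12 (SE), adjusted p = 2.5e-05, and Fam189b by -1.18 ± 0.14 (SE), adjusted p = 1.93e-05. All 6 were lower in each of the 4 libraries, as their choice required. For Bcl2, Gimap7, Evl and Fam189b the classes did not overlap, which a choice by small p and 1 direction favours. How many of all genes tested show no overlap was not counted, here or for Rora, Ccr6, Tnfsf11, Cxcr3 and Klrd1 above.

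Of 19 TCR response genes tested, 10 were higher and 0 lower, with a median of 0.68; 8 were higher without brain day 14, and 6 without spinal cord day 14. Egr3, a TCR-induced factor, stood at 59.9, 31.4, 113 and 22.3 CPM against 14.9, 7.84, 33.7 and 8.2 (1.83 ± 0.13 (SE), adjusted p = 6.23e-08). The orphan nuclear receptors Nr4a3 and Nr4a1 differed by 1.29 ± 0.13 (SE), adjusted p = 3.85e-06 and 1.28 ± 0.17 (SE), adjusted p = 0.000883. Il2ra, the α chain of the IL-2 receptor, differed by 0.90 ± 0.14 (SE), adjusted p = 0.000307, lost without brain day 14, and Tnfrsf4, which encodes OX40, by 0.74 ± 0.12 (SE), adjusted p = 0.000665, lost without spinal cord day 14 and at like depth. Of 16 immediate early genes 3 were higher, Ier5l (1.36), Fosl2 (0.72) and Atf3 (0.94), while the median was -0.13, or 0.10 at like depth; Fosl2 and Atf3 were lost without either day 14 library, and Atf3 at like depth. Of 10 genes of the TCR complex and CD4, only Lat, an adaptor below the TCR, was higher (0.41 ± 0.10 (SE), adjusted p = 0.00859), lost without either day 14 library. Trac differed by 0.17 (adjusted p = 0.325).

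Glycolysis gave 9 of 15 genes higher and 0 lower, at a median of 0.45, but only 3 against zero cells of like depth, and 5 without either day 14 library. Hk2, the first enzyme of the pathway, stood at 61.2, 188, 50.7 and 50.2 CPM against 34.8, 51.9, 29.2 and 28.01 (0.88 ± 0.14 (SE), adjusted p = 0.000342). Tpi1 and Pgk1 differed by 0.66 ± 0.12 (SE), adjusted p = 0.00107 and 0.63 ± 0.12 (SE), adjusted p = 0.00161, and Pgk1 was lost at like depth. Slc16a3, a lactate exporter, differed by 1.03 ± 0.21 (SE), adjusted p = 0.00294, lost at like depth and without brain day 14. Of 23 secretory pathway and unfolded protein response genes 6 were higher and 0 lower, among them Pdia6 (0.46), Sec11c (0.43), Sdf2l1 (0.40) and Calr (0.37). None of the list was called against zero cells of like depth, nor without either day 14 library.

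Of 14 interferon response genes tested, 5 were lower and 0 higher, at a median of -0.52. There were 7 lower without brain day 14, 2 without spinal cord day 14 and 3 at like depth. Ifit3, an antiviral protein, stood at 7.77, 0, 0.897 and 0 CPM against 39.8, 52.9, 15.3 and 24.8 (-2.77 ± 0.27 (SE), adjusted p = 3.19e-06). Irf7, the factor that amplifies type I interferon, differed by -0.67 ± 0.14 (SE), adjusted p = 0.00454 and Rtp4 by -1.21 ± 0.25 (SE), adjusted p = 0.00759, both lost without spinal cord day 14, and Irf7 also at like depth. Bst2, which tethers budding virus, differed by -0.72 ± 0.15 (SE), adjusted p = 0.00515, lost at like depth.

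Whether the difference between the classes itself changed with the day was tested as an interaction over both tissues. It was larger at day 50 for 31 genes (0.471%) and smaller for 25 (0.38%), 0.851% of 6583. Values are the log2 difference at day 50 minus that at day 14. Receptors of IL-1 and of neuropeptide rose relative to zero cells at day 50, and Ifng, Ccl5, Ccl1, Nkg7 and Egr1 fell. The day 50 side rests on 30 and 32 Il17a cells.

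Ifng showed the change most plainly. Il17a cells held 525, 39.2, 646 and 11.2 CPM of Ifng, and zero cells 408, 324, 395 and 336, so at day 14 the Il17a cells were above and at day 50 below. The change was -4.43 ± 0.38 (SE), adjusted p = 2.29e-07, and it held without each library and under every alternative. At day 50 there were 5 Ifng UMIs in brain and 2 in spinal cord. At day 14, 2 cells held 32.4% and 41.7% of the Ifng UMIs. At equal depth fewer Il17a than zero cells had an Ifng UMI in each library, 19.3%, 9.09%, 20.1% and 3.23% against 29.3%, 33.3%, 28.2% and 30.7%, which goes against the day 14 levels, so no order is read from day 14. Tnf, a cytokine outside the fixed set of named genes and chosen after its values were seen, also fell relative to zero cells (-1.90 ± 0.36 (SE), adjusted p = 0.0143), a call held without brain day 14 only, at 151, 94.1, 306 and 27.9 CPM against 74.7, 98.9, 113 and 72.9.

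Ccl5, which attracts effector T cells, stood at 364, 23.5, 168 and 39.02 CPM in Il17a cells and 1591, 2691, 968 and 3407 in zero cells, lower in all 4 libraries. The gap widened at day 50 (-4.29 ± 0.38 (SE), adjusted p = 1.02e-07), and the 3 and 7 UMIs there came from few cells. Nkg7, a cytotoxic granule protein, stood at 281, 23.5, 329.5 and 78.04 against 692, 588, 797 and 899 (-2.54 ± 0.31 (SE), adjusted p = 1.42e-05). Ccl1, the ligand of CCR8, stood at 379, 7.84, 845 and 0 against 354, 265, 636 and 134 (-6.18 ± 0.62 (SE), adjusted p = 6.7e-07), with 1 UMI in brain and 0 in spinal cord at day 50, where it was at least 8.01-fold lower. Without brain day 50 the fitted Ccl1 change was -14.52, a value that depends on the prior count since no day 50 UMI is left. Egr1, an immediate early factor, stood at 147, 157, 146 and 27.9 against 101, 475, 101 and 277, higher in Il17a cells at day 14 and lower at day 50 (-2.75 ± 0.26 (SE), adjusted p = 4.11e-07). Of 12 Th1 genes tested, 3 fell in this sense and 0 rose, and of 16 immediate early genes 5 fell and 0 rose.

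Ramp1, which lets the calcitonin receptor-like receptor bind the neuropeptide CGRP, stood at 637, 862, 849 and 969.9 CPM in Il17a cells against 244, 90.1, 333 and 108 in zero cells. Il17a cells were higher in every library, by 2.62-, 9.57-, 2.55- and 8.97-fold. The change with the day was 1.81 ± 0.15 (SE), adjusted p = 7.76e-08, and it held in all 13 alternatives. Between the days the level differed more in zero cells, where it was lower at day 50 in both tissues, than in Il17a cells, where it was higher. At equal depth 58.7%, 81.8%, 64.2% and 74.2% of Il17a cells had a Ramp1 UMI, against 24.1%, 13.5%, 32.9% and 14.3% of zero cells.

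Il1r2, a decoy receptor that binds IL-1 without signalling, stood at 137, 125, 261 and 128 CPM against 42.9, 1.96, 64.6 and 3.25 (3.57 ± 0.42 (SE), adjusted p = 9.15e-06), and the change held in all 13 alternatives. The signalling receptor Il1r1 showed a like change (2.16 ± 0.39 (SE), adjusted p = 0.00498), lost without any library but brain day 14 and at like depth. For both, the Il17a cells of day 50 did not exceed those of day 14 in spinal cord, while the level in zero cells was lower at day 50 in both tissues. Igfbp7, a secreted binder of insulin-like growth factors, stood at 162, 463, 373 and 273 against 43.8, 10.8, 80.2 and 15.5 (2.42 ± 0.28 (SE), adjusted p = 4.7e-05); thinned to equal depth the change was 1.54 (adjusted p = 0.0788). Il23r changed by 4.87 ± 1.17 (SE), adjusted p = 0.0475, resting on 10 UMIs in spinal cord and 0 in brain at day 50, and was lost in all 3 fits that left out a library and at like depth.

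Rgs10, a regulator of G protein signalling, changed by 1.13 ± 0.16 (SE), adjusted p = 0.000204 and Ptms, parathymosin, by 1.31 ± 0.21 (SE), adjusted p = 0.00115. Rgs10 was lost without spinal cord day 14 (adjusted p = 0.0692) and Ptms without brain day 50 (adjusted p = 0.0611), and neither was called at equal depth per cell. Tmem176b (1.32 ± 0.21 (SE), adjusted p = 0.0148) and Ltb4r1 (1.27 ± 0.30 (SE), adjusted p = 0.0473) were each lost in 3 of the 4 fits that left out a library and at like depth.

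**Figure D4:**
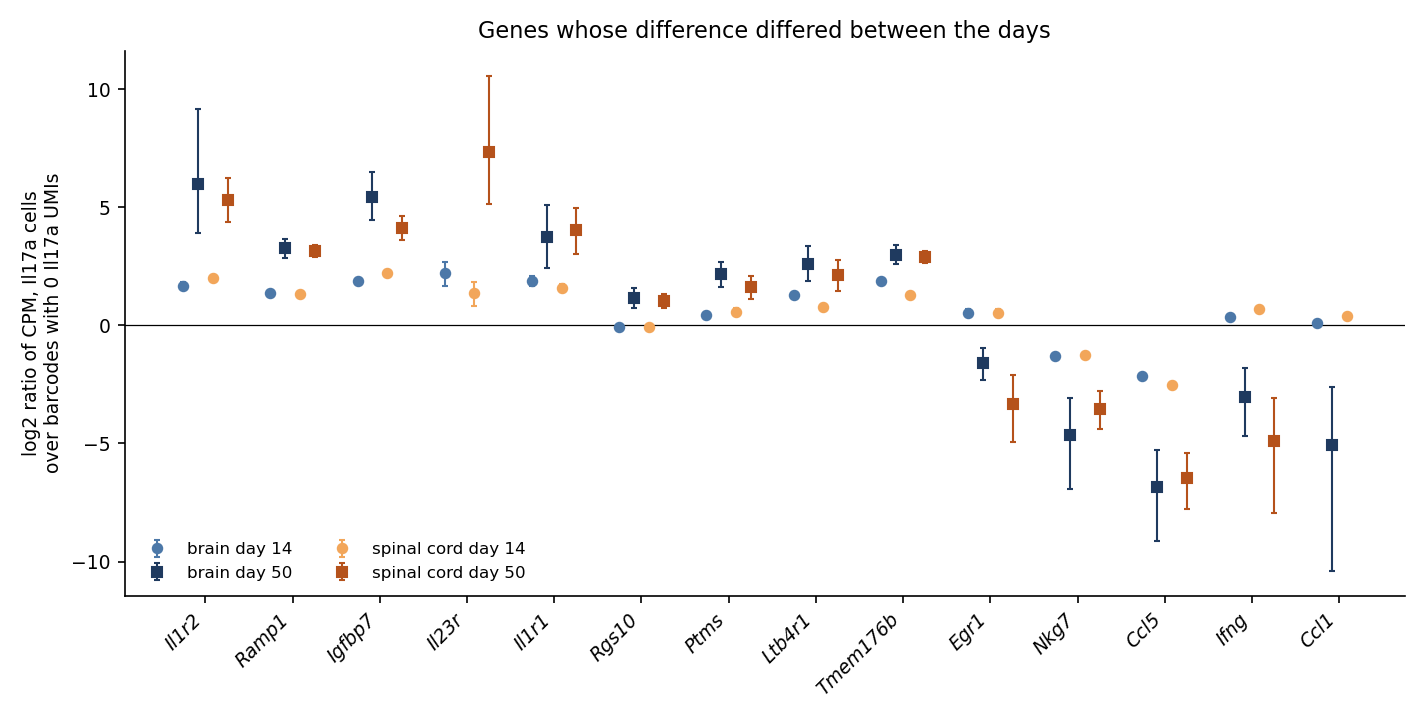
Log2 ratio of CPM between Il17a cells and cells with 0 Il17a UMIs in each library for 14 genes whose difference changed with the day, with exact conditional binomial 95% intervals that cover counting error only; circles are day 14, squares day 50. Where both are drawn, squares lie above circles for the first 9 genes and below them for the last 5; a point is missing where Il17a cells had 0 UMIs (Il23r in brain and Ccl1 in spinal cord, both at day 50).

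No gene differed between the tissues in the same sense, 0 of 6583 by edgeR (0%) and 0 by DESeq2. At an unadjusted p under 0.05 there were 46, of which 16 were larger in spinal cord and 30 in brain. Left out in turn, the libraries gave from 0 to 6 genes larger in spinal cord and from 0 to 28 larger in brain, the most without brain day 14. The spread that this test is set against includes the difference between the days.

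Levels followed the number of Il17a UMIs for some genes and not for others. In brain at day 14, Ctla4 stood at 182.7 CPM in cells with 0 Il17a UMIs, 294 with 1 or 2, 348 with 3 to 9 and 554 with 10 or more, and in spinal cord at day 14 at 66.2, 140, 169 and 271. Ccr6 stood at 4.14, 15.2, 18.4 and 38.6 CPM in that brain library and at 3.82, 21.02, 31.9 and 52.5 in that spinal cord library. Ly6c2 stood at 241, 68.5, 16.0 and 27.2 CPM in brain and at 162, 17.2, 16.7 and 24.1 in spinal cord. Cells with 1 or 2 UMIs thus lay between the classes or near the Il17a cells for these genes. Xcl1 differed: in brain at day 14 it stood at 63.4 CPM with 0 Il17a UMIs, 80.8 with 1 or 2 and 4.14 with 3 to 9.

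Against the 719 cells with 1 or 2 Il17a UMIs, a comparison chosen after seeing the data, Il17a cells had 38 of 6564 genes higher (0.579%) and 7 lower (0.107%). Of the 375 genes higher than in zero cells, 355 had the same sign here and 30 were called, and of the 328 lower, 256 and 6. Both comparisons use the same Il17a cells, which favours like signs, so these counts are not independent of the main calls. The share of like signs over all genes was not counted. Just outside the threshold, the 204 cells with 2 Il17a UMIs had 228.6 CPM of Ctla4 and 97.3 of Csf2. Just inside, the 147 cells with 3 UMIs had 256.6 and 204.

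Surface protein was read from antibody tags. Il17a cells carried a mean of 37.0, 17.4, 38.4 and 18.6 CXCR6 tags per cell against 21.4, 5.96, 27.9 and 17.1 in zero cells. The mean log2 ratio was 0.73 ± 0.61 (SD, n = 4 libraries), higher in 4 of 4 (exact sign-flip permutation test, two-sided p = 0.13, the smallest that 4 libraries allow). CD69 gave 11.1, 8.40, 24.0 and 15.0 against 8.05, 3.83, 20.6 and 9.84, a mean log2 ratio of 0.61 ± 0.39 (SD, n = 4), also higher in 4 of 4 (exact p = 0.13). In spinal cord at day 50 the median ran the other way for CD69, 2 tags against 4. P2X7R gave 11.2, 4.67, 22.8 and 6.94 against 7.62, 2.42, 16.3 and 10.3, a mean log2 ratio of 0.35 ± 0.65 (SD, n = 4), higher in 3 of 4 (exact p = 0.5).

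Il17a cells also held more RNA per cell. Against zero cells of like depth the mean log2 ratios were 0.49 for CXCR6, 0.16 for CD69 and 0.04 for P2X7R. The log2 ratio was above 0 there in 3, 2 and 3 of the 4 libraries. Per 1000 RNA UMIs the mean log2 ratios were 0.30, 0.17 and -0.08, with 3 of 4 libraries above 0 for each protein. No protein passed the test, and 4 libraries cannot reach a p under 0.05. The tag features carry an identifier and a name that disagree for P2X7R and CXCR6, and the identifiers, which match the labels' antibodies, were used.

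**Figure D5:**
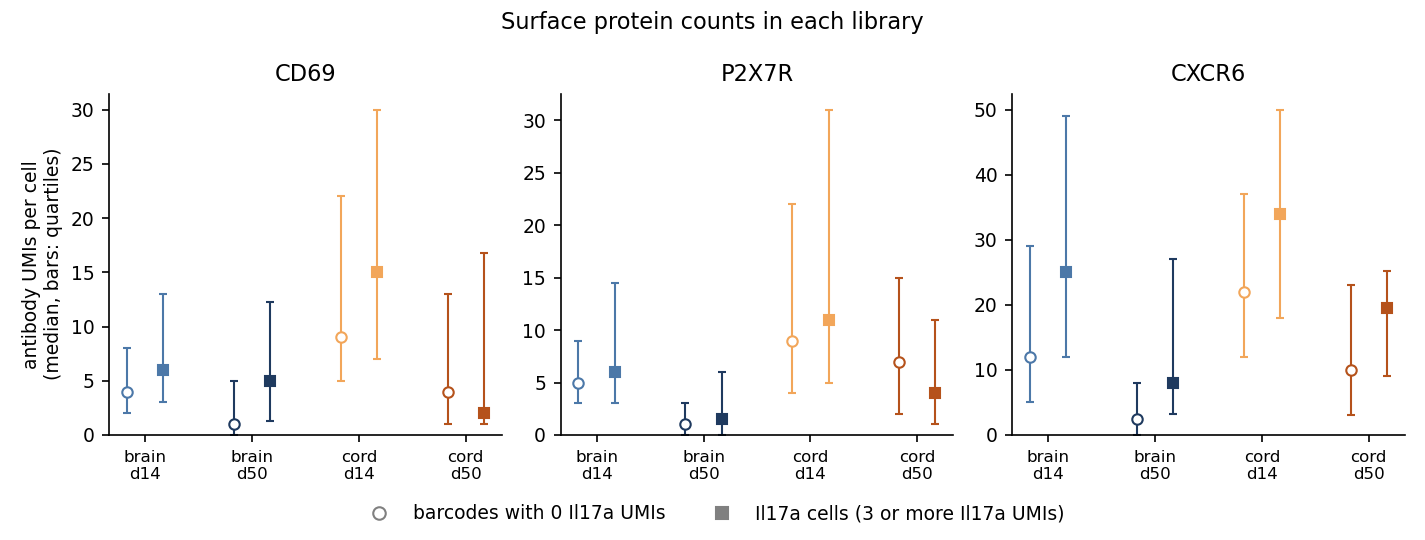
Antibody UMIs per cell for CD69, P2X7R and CXCR6 in each library, on linear axes from 0; filled squares are Il17a cells, open circles cells with 0 Il17a UMIs, at the median with bars from the lower to the upper quartile. The CXCR6 medians of Il17a cells (25, 8, 34 and 19.5) lie above those of zero cells (12, 2.5, 22 and 10) in all 4 libraries, while CD69 and P2X7R medians cross in spinal cord at day 50.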

How the data were processed

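Single-cell RNA and antibody tags were read in 4 libraries, 1 for each tissue and day. The deposited files hold raw UMI counts per gene and barcode, per the file headers, made with Cell Ranger 6.1.1 on mm10, per the submitters' processing notes. The last 3 features are antibody counts. Whether reads were counted by strand is not given in the sources used here.

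Cells needed 500 genes and no more than 10% of UMIs from mitochondrial genes. Doublets were not called; leaving out cells above 3 times the library's median UMIs was an alternative. UMIs were summed by library and class (at least 3, or 0, Il17a UMIs), giving 8 sums. edgeR 4.0.16 (R 4.3.3) tested genes of at least 10 CPM on average, with TMM scaling, the quasi-likelihood test, the library as a block and Benjamini-Hochberg adjustment. The block pairs the classes because both come from the same library. Il17a was left out of the tests. Shares have exact Clopper-Pearson intervals, levels exact Poisson and ratios conditional binomial ones, all at 95%. Antibody means were compared by an exact sign-flip test over libraries. Cells were thinned to 2000 UMIs for shares, and the like-depth comparison took the 3 zero cells nearest in UMIs to each Il17a cell. The edgeR fit was tested on simulated counts with known fold changes. Python 3.11.15, numpy 2.4.6, scipy 1.17.1, pandas 2.3.3 and matplotlib 3.10.9 were used, and DESeq2 1.42.0 as an alternative.

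Named genes were the 10 higher and 10 lower genes of smallest p with at least 50 CPM and 1 direction in all 4 libraries, up to 4 genes of each list by smallest p, a set of Th17, cytokine and residency genes, and up to 5 genes in each direction of each interaction. Other list members named in the text were chosen after their values were seen. The Il17a cells and the lists were chosen with earlier results of these data known. The kept cells held 1177903 to 50710551 RNA UMIs per library, so day 50 values carry the widest intervals. Promoter windows come from RefSeq tables of GRCm38.p6. No sample was left out, and a few members of the lists are not reported here.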

Additional observations from a re-analysis of the deposited data

Results flagged for a closer look

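These genes are listed because the difference between Il17a cells and cells with 0 Il17a UMIs itself differed between the days, by the edgeR interaction test (log2 difference at day 50 minus day 14). It was larger at day 50 for Il1r2 (3.57 (adjusted p = 9.15e-06)), Ramp1 (1.81 (adjusted p = 7.76e-08)), Igfbp7 (2.42 (adjusted p = 4.7e-05)), Ptms (1.31 (adjusted p = 0.00115)) and Rgs10 (1.13 (adjusted p = 0.000204)), and, among other receptors and surface genes, for Il23r (4.87 (adjusted p = 0.0475)), Il1r1 (2.16 (adjusted p = 0.00498)), Tmem176b (1.32 (adjusted p = 0.0148)) and Ltb4r1 (1.27 (adjusted p = 0.0473)). It was smaller at day 50 for Ccl1 (-6.18 (adjusted p = 6.7e-07)), Ifng (-4.43 (adjusted p = 2.29e-07)), Ccl5 (-4.29 (adjusted p = 1.02e-07)), Egr1 (-2.75 (adjusted p = 4.11e-07)) and Nkg7 (-2.54 (adjusted p = 1.42e-05)). Day and library cannot be told apart, since each day of a tissue is 1 library. Without each library in turn, 8 of the 14 kept their calls: Ramp1, Il1r2, Igfbp7, Ccl5, Ifng, Egr1, Ccl1 and Nkg7. All 14 kept their direction in every fit run.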

How the results depend on the processing

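Beside 375 genes higher and 328 lower, a minimum of 50 CPM gave 151 and 150, and no filter gave 631 lower. DESeq2 called 182 lower, and zero cells of like depth left 172 lower. Leaving out each library gave 118 to 412 higher and 89 to 341 lower. Both classes of a library are paired, and without the replicate block 53 were higher and 33 lower; of 112 named genes, 56 lost their calls, and Atf3 (-0.17) and Cd69 (-0.026) changed sign.

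Larger at day 50 were 31 genes; library totals gave 19, no filter 57, thinned cells 13 and thresholds of 2 and 5 Il17a UMIs 18 each, and leaving out each library gave 18 to 34. Smaller were 25; DESeq2 gave 16, no filter 61, both thresholds 13 each, and leaving out each library 13 to 29. Between the tissues, leaving out a library gave 0 to 6 and 0 to 28 beside 0. The share of Il17a cells, thinned and at thresholds of 2 and 5, was 3.34, 5.99 and 3.66% in brain and 1.62, 4.55 and 2.35% in spinal cord at day 14. Per 1000 RNA UMIs, the mean log2 ratio of P2X7R tags was -0.08.

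Some alternatives were chosen after seeing the data: cells with 1 or 2 UMIs as comparison, no shared barcodes, no richest cell, no cycling cells, and leaving out libraries in the interactions. Against cells with 1 or 2 UMIs, 38 genes were higher and 7 lower, and of 103 named genes 49 lost their calls. There the sign changed for Lta (-0.12), Atf3 (-0.12), Mcm3 (-0.10), Mcm5 (-0.003), Cyp51 (-0.002), Irf7 (0.084), Mbp (0.10), Ifng (0.53), Ccr2 (0.20), P2rx7 (-0.019), Mki67 (-0.32) and Rgs10 (-0.034). At like depth it changed for Mcm6 (-0.017), Cdk1 (-0.15), Mki67 (-0.35) and Egr1 (0.20), and thinned for Ifng (0.33), Ccr2 (0.05), Egr1 (0.009) and Ccl1 (0.35). With the UMI limit it changed for Ifng (0.007) and Ccr2 (0.002), without cycling cells for Ifng (0.12) and Egr1 (0.044). Cd69 was -0.028 at 50 CPM, -0.024 with no filter, -0.01 at a threshold of 2 and -0.004 without the richest cells. Leaving out each library, Ifng ran from -1.19 to 0.22, Ccr2 from -0.30 to 0.12, Cd69 from -0.13 to 0.09, P2rx7 from -0.05 to 0.19, Egr1 from -0.85 to 0.22 and Ccl1 from -1.15 to 0.02. Between the classes, leaving out a library gave differences of named genes from -9.26 (Eomes without brain day 14, where its Il17a cells have 0 UMIs and the value depends on the prior count) to 8.16 (Il17f without brain day 14). The cause was not tested. Without shared barcodes all 112 named genes kept sign and call. Each group is 1 library, and 30 and 32 Il17a cells stand for day 50.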

Other observations

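Genes of follicular helper T cells, which help B cells in germinal centres, split: of 6 tested, 2 were higher in Il17a cells (Il21 and Tox2) and 3 lower (Izumo1r, Slamf6 and Sh2d1a). Izumo1r, the folate receptor 4 gene also known from regulatory and anergic cells, stood at 10.7, 0, 2.24 and 5.57 CPM against 36.9, 66.6, 15.9 and 65.9 (-2.20 ± 0.24 (SE), adjusted p = 1.11e-05), Slamf6, a receptor of stem-like T cells, differed by -1.5 ± 0.17 (SE), adjusted p = 1.84e-05 although it was not lower in brain at day 50, and Tox2, a factor of exhausted and follicular cells, by 1.37 ± 0.19 (SE), adjusted p = 9.38e-05, lost without spinal cord day 14. Ikzf2, which encodes Helios, was lower (-1.59 ± 0.26 (SE), adjusted p = 0.000674), and so was the Th2 factor Gata3 (-0.54 ± 0.12 (SE), adjusted p = 0.00711), lost without either day 14 library and at like depth. Of 24 proliferation genes, only the replication helicase subunit Mcm3 was higher (0.51, adjusted p = 0.0202), lost without either day 14 library and 0.01 against zero cells of like depth. There the list turned, from a median of 0.24 to -0.34, with 0 genes higher and 3 lower (Pclaf, Rrm2 and Tyms, named after their values were seen). Mki67 differed by 0.24 (adjusted p = 0.791). Of 10 cholesterol synthesis genes, Insig1, which restrains the pathway, was higher (0.61) and Sc5d lower (-0.56), both lost without either day 14 library, Sc5d also without spinal cord day 50 and at like depth.

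Mbp, the myelin basic protein gene of oligodendrocytes, led the neural list, at 49.2, 47.04, 73.5 and 33.5 CPM in Il17a cells, and was not called (-0.07 ± 0.11 (SE), adjusted p = 0.769). Penk, which encodes the enkephalin precursor and was chosen after its values were seen, was higher relative to zero cells at day 50 (2.74 ± 0.51 (SE), adjusted p = 0.0342), at 19.4, 274, 4.03 and 94.8 CPM against 16.7, 39.2, 12.7 and 20.8, with 77.1% and 94.1% of its day 50 UMIs in 2 cells of each library; the call was lost without either of those libraries. One cell of day 14 brain held 324 Il17a, 489 Il17f and 356 Il22 UMIs among 11831, and the cell richest in Il17a there held 429 Il17a and 78 Ifng UMIs among 7089. Among cells with UMIs of a single TCR β constant gene, Trbc1 was the one seen in 1.17% of Il17a cells in brain at day 14 (2 of 171, exact 95% interval 0.142 to 4.16%) and in 3.50% of zero cells (2.97 to 4.09%); in spinal cord at day 14 it was 2.14% (0.444 to 6.14%) against 2.37% (1.93 to 2.88%), and the near-identical genes may share reads.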
